A study of Homo sapiens with 17 samples.

Results

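Among the places where 6 proteins were crosslinked to RNA in 293T cells, 653 regions outside the mitochondrial chromosome carried a peak in every one of the 11 deposited eCLIP libraries. They were found by merging all peaks that overlapped on 1 strand by 1 nt or more and keeping the merged regions to which all 11 lists contributed. There were 219478 merged nuclear regions in all, so the 653 made up 0.298% of them, and they held 12118 of the 388302 nuclear peaks (3.12%). No threshold on fold or p was part of the choice. A region therefore entered with a peak above or below its input, and the presence of a peak in each library is what the choice used and not a finding.

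The study took 6 proteins as candidate RNA-binding proteins: ZNF184, VIM, RNF219, RANGAP1, NUMA1 and AIFM1. All libraries came from 293T, a single human embryonic kidney cell line that carries the SV40 large T antigen, exposed on the plate to ultraviolet light of 254 nm at 400 mJ per square cm. AIFM1, NUMA1, RANGAP1, VIM and ZNF184 had 2 eCLIP replicates each, RNF219 had 1 library, and each protein was pulled down with 1 commercial antibody and had 1 size-matched input. The replicates are called biological, but nothing more is said of separate cultures, and the 2 replicates of a protein share their input.

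In eCLIP, ultraviolet light links proteins covalently to bound RNA, 1 protein is pulled down by its antibody, and the RNA fragments that come along are sequenced. The size-matched input is RNA cut from the same window of the gel without the antibody, and it is used because abundant RNA fragments of that size can turn up in any pull-down. AIFM1 is a flavoprotein of mitochondria with a part in cell death. NUMA1 belongs to the nucleus and the spindle poles. RANGAP1 activates the GTPase activity of Ran in nuclear transport. RNF219 is a RING finger protein, VIM is the intermediate filament protein vimentin, and ZNF184 is a zinc finger protein. Values below are the authors' log2 fold of eCLIP over size-matched input, taken per region and library from the highest peak there. A value of 0 is the level of the input, and values of different proteins rest on different inputs.

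Regions are given by position on the build hg19 and by a running number (R001 to R653). Genes, transcript parts and sequences at these positions were not analysed here.

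Peaks shared by all libraries sat at the far end of a steep distribution. Most nuclear regions, 151930 of them or 69.2%, had a peak in 1 library, 16.0% had peaks in 2 libraries, and the share fell to 0.286% at 10 libraries. The 627 regions with peaks in 10 libraries lie just outside the choice. What they lacked was most often VIM replicate 1 (138 regions), RNF219 (135), VIM replicate 2 (110) or AIFM1 replicate 1 (96), and VIM replicate 1 and AIFM1 replicate 1 had the 2 shortest lists. Their median log2 folds ran a little above those of the 653 regions in 10 of the 11 libraries, for example 1.10 against 0.47 in VIM replicate 1 and -0.21 against -0.51 in RNF219. The exception was ZNF184 replicate 2, at 1.39 against 1.53.

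**Figure D1:**
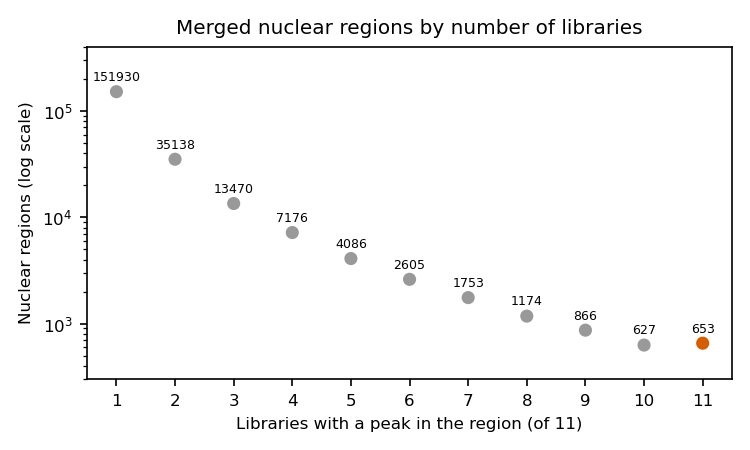
Merged nuclear regions (vertical axis, log scale) by the number of the 11 libraries with a peak in them (horizontal axis). Points fall from 151930 regions with a peak in 1 library to 627 in 10, and the orange point marks the 653 regions with a peak in all 11.

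The shared regions were wide. Their width ran from 12 to 696 nt with a median of 115 nt, against a median of 33 nt for all other nuclear regions. A wide merged region has more room to hold a peak of each list, so this width is tied to the way the regions were formed. They held 11 to 149 peaks, with a median of 16, and 117 of them held exactly 1 peak per library. In 190 regions (29.1%) the highest peaks of all 11 libraries had at least 1 base in common. That was the case for 104 of the 117 regions with 1 peak per library and for 86 of the other 536.

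The plus strand carried 335 regions and the minus strand 318, and 3 of them lay across from a nuclear region on the opposite strand, none of which was among the 653. By chromosome, 69 lay on chromosome 17, 62 on 11, 61 on 1, 58 on 19 and 45 on X. Chromosome X held 6.89% of the shared regions and 3.19% of all nuclear regions. Chromosome 18 held 2 and chromosome Y none. Taking regions on 1 strand at most 10 kb apart as a locus gave 435 loci. Of these, 313 held a single region, and the other 122 held 340 regions (52.1%).

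A peak in every library did not mean enrichment in every library. Only 42 of the 653 regions were above input in all 11 libraries, 17 were below input in all 11, and 594 were above in some and below in others. The median of a region's 11 log2 folds had a median of 0.53 over the regions, with quartiles of -0.05 and 1.08 and extremes of -4.54 and 6.71. It lay above 0 in 477 regions. Within a region, the highest and lowest library differed by 3.79 at the median. That gap was more than 2 in 627 regions and more than 4 in 282.

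Library by library, the shared regions were lowest in RNF219 and highest in ZNF184. Their median log2 fold was -0.51 in RNF219, -0.21 and 0.29 in the NUMA1 replicates, and 0.47 and 0.15 in those of VIM. It was 0.67 and 0.57 in RANGAP1, 0.70 and 0.82 in AIFM1, and 1.11 and 1.53 in ZNF184. RNF219 and NUMA1 replicate 1 had medians below input, and the other 9 libraries had medians above it.

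Against the other nuclear regions of the same library, the shared regions were lower in 9 of the 11 libraries. The median of the other regions was 2.27 and 2.30 in the VIM replicates, 1.43 and 1.44 in NUMA1, 1.30 and 1.48 in RANGAP1, and 1.07 in RNF219. In ZNF184 it was 1.28 and 1.35 and in AIFM1 1.28 and 0.68, so ZNF184 replicate 2 and AIFM1 replicate 2 had the higher median in the shared regions. The groups of regions were formed by the peaks themselves, so no test was made.

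**Figure D2:**
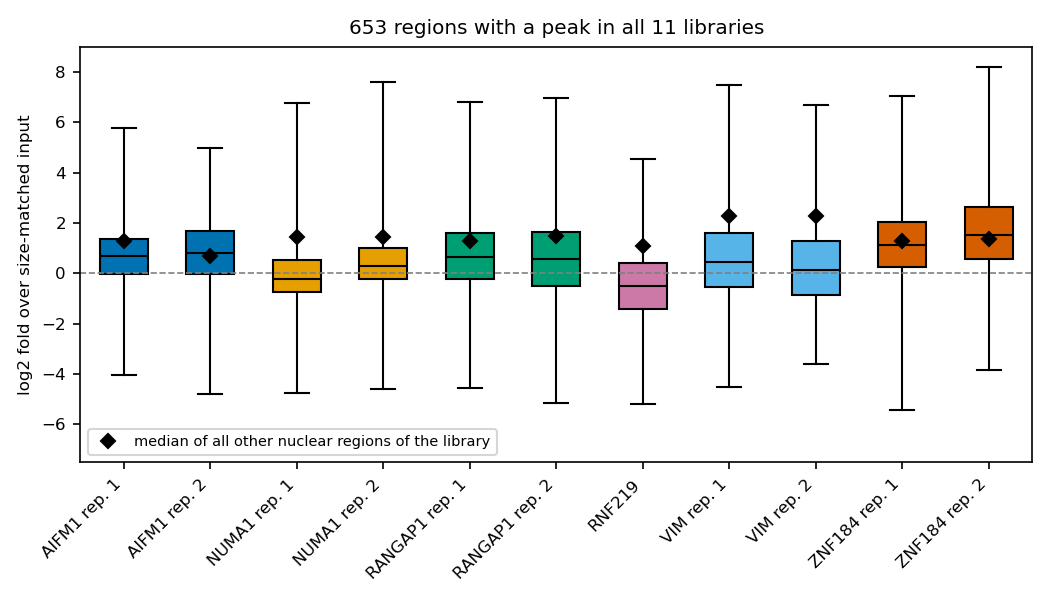
Authors' log2 fold over size-matched input (vertical axis) in the 653 shared regions for each of the 11 libraries (horizontal axis). Boxes span the quartiles with the median as a line, whiskers reach the lowest and highest region, and diamonds give the median of all other nuclear regions of that library, which lies above the box line in all but AIFM1 replicate 2 and ZNF184 replicate 2.

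The folds could be turned back into reads, because each is a ratio of whole read numbers multiplied by 1 constant per library, the input depth divided by the eCLIP depth. This constant was lowest in AIFM1 replicate 2 (0.534) and highest in VIM replicate 1 (4.84). The reads were fixed by fold and p together for 61.5% of the 7183 values. This leaves out the values below input and some far above it, such as both ZNF184 folds of R507 (7.07 and 8.19). Over the fixed values of a library, the median at the highest peak of a shared region was between 10 and 47.5 eCLIP reads and between 5 and 42 input reads. An input count of 1 read may also stand for no input read, since these cannot be told apart. Intervals on such folds are 95% Clopper-Pearson intervals on the eCLIP share of the eCLIP and input reads. They take the recovered counts as right, an input of 1 read included, and cover counting error only.

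By number of regions, strong enrichment was most frequent with ZNF184, in the shared regions and over all nuclear regions alike. A region was called significant in a library when a peak there had an authors' -log10 p of 3 or more together with a log2 fold of 3 or more (8-fold). In 465 of the 653 regions no library reached this, 188 reached it in at least 1 library, and 10 in at least 5. A ZNF184 library was among them for 132 of the 188 regions. For 97 regions no other protein was significant, and 56 were significant without ZNF184. Over all nuclear regions the ZNF184 libraries also had the most significant regions, 1875 and 2328, with RANGAP1 replicate 2 next at 1464. The same counts of sharing between proteins were not made over all nuclear regions.

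ZNF184 had 60 significant shared regions in replicate 1 and 128 in replicate 2, where 3.12% and 4.58% of all nuclear regions of these libraries were significant, and 56 were significant in both replicates. RANGAP1 had 24 and 36, against a background of 1.54% and 3.01%, with 21 in both. VIM had 27 and 28, against 5.00% and 4.25%, with 15 in both. NUMA1 had 8 and 18, against 1.52% and 0.863%, with 8 in both.

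AIFM1 had 7 and 14 significant shared regions, against a background of 0.149% and 0.123%, with 5 in both. RNF219 had 10, against 0.659%. As a share of the 653 regions, these counts come to 9.19% and 19.6% for ZNF184, 3.68% and 5.51% for RANGAP1, 1.07% and 2.14% for AIFM1 and 1.53% for RNF219, each above the library's background. The share was near the background for VIM, at 4.13% and 4.29%. It was below it in replicate 1 of NUMA1 (1.23%) and above it in replicate 2 (2.76%). These are descriptions, since the regions were chosen by peaks of the same libraries, and at equal fold a deeper library reaches the p threshold more easily.

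Wide regions were the more strongly enriched. The 108 regions wider than 200 nt had a median of 1.23 for the median log2 fold over libraries, and 43.5% of them were significant in at least 1 library. The 278 regions of 101 to 200 nt had a median of 0.41, the 215 of 51 to 100 nt 0.32, and the 52 of at most 50 nt 0.31. Of these narrower classes, 21.2%, 30.2% and 32.7% were significant in at least 1 library. The highest peak was used per region and a wide region holds more peaks, with a median of 23 against 12 in the narrowest class, so width and number of peaks cannot be told apart here.

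A single region was significant in all 11 libraries. This was R518 (chr6:31958259-31958286, plus strand), with the highest median of all 653. Its log2 folds were 5.77 and 4.98 in AIFM1, 6.79 and 7.08 in NUMA1, 6.82 and 6.98 in RANGAP1, 3.66 in RNF219, 7.48 and 6.71 in VIM, and 5.42 and 6.14 in ZNF184. Every library was thus above its input, with RNF219 the lowest. The highest peaks of the 11 libraries had no base in common in this region. The input was thin: AIFM1 replicate 1 had 45 eCLIP reads beside 1 input read, for an interval of 3.22 to 11.11, and AIFM1 replicate 2 had 59 beside 1. RNF219 had 18 beside 1, for an interval of 0.99 to 9.04. In the libraries of the other proteins the reads were not fixed.

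R507 (chr6:10887833-10887860, plus strand) was significant in 10 libraries, all but RNF219. Its log2 folds were 4.57 and 4.40 in AIFM1, 3.46 and 3.78 in NUMA1, 5.25 and 5.5 in RANGAP1, 0.66 in RNF219, 4.01 and 4.0 in VIM, and 7.07 and 8.19 in ZNF184. R112 (chr11:32165336-32165358, minus strand), significant in 7, had 3.09 and 4.27 in AIFM1, 4.31 and 5.06 in NUMA1, 6.32 and 6.78 in RANGAP1, 1.30 in RNF219, 1.86 and 2.03 in VIM, and 5.62 and 7.40 in ZNF184. In both, ZNF184 replicate 2 was the highest library and RNF219 the lowest. The 3 regions with the highest medians were all at most 28 nt wide.

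R358 (chr19:45981854-45981957, minus strand) was significant in 6 libraries. Its log2 folds were 1.64 and 1.57 in AIFM1, 2.47 and 2.25 in NUMA1, 4.55 and 4.12 in RANGAP1, -1.87 in RNF219, 4.51 and 3.75 in VIM, and 4.64 and 6.57 in ZNF184. R081 (chr11:16863805-16863885, plus strand) completed the 5 highest medians, with 3.60 and 3.85 in AIFM1, 1.26 and 3.67 in NUMA1, 3.37 and 3.83 in RANGAP1, -1.73 in RNF219, 2.60 and 2.71 in VIM, and 2.77 and 5.31 in ZNF184. In both of these RNF219 was below its input while the folds of the other 10 libraries were above 0. For R081 this did not hold beyond counting error in every library. Its ZNF184 replicate 1 fold came from 5 eCLIP reads and 1 input read, with an interval of -0.39 to 8.33. The interval of its NUMA1 replicate 1 fold was -0.45 to 3.07.

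The other 6 regions significant in at least 5 libraries reached that number with different proteins. R043 (chr1:91853041-91853161, minus strand) was at 3.12 and 2.92 in AIFM1, 3.06 and 3.58 in NUMA1 and 4.10 and 4.12 in ZNF184, with RANGAP1 at 0.92 and 2.64, VIM at 1.73 and 1.13 and RNF219 at -0.29. R086 (chr11:65190271-65190528, plus strand) was at 3.61 and 3.11 in NUMA1, 2.76 and 3.01 in RANGAP1 and 3.86 and 4.68 in VIM, with AIFM1 at 1.56 and 1.10, ZNF184 at 0.60 and 1.31 and RNF219 at -1.10. Thus VIM led R086, where ZNF184 was low, and ZNF184 led R043, where VIM was low.

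R289 (chr17:41466138-41466398, minus strand) was at 3.32 and 3.35 in RANGAP1, 3.55 and 3.64 in ZNF184 and 0.95 and 3.20 in VIM, with AIFM1 and NUMA1 between 0.83 and 1.51 and RNF219 at -0.51. R568 (chr8:28387942-28388028, plus strand) had ZNF184 at 3.18 and 3.67, VIM at 5.15 and 3.74 and NUMA1 at 3.17 and 7.62, with the other 5 libraries between 0.37 and 1.49. The NUMA1 replicates of R568 lay far apart, and replicate 1 rested on 5 eCLIP reads beside 1 input read, with an interval of 0.01 to 8.74. The last 2, R542 and R221, are described with RNF219 below.

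**Figure D3:**
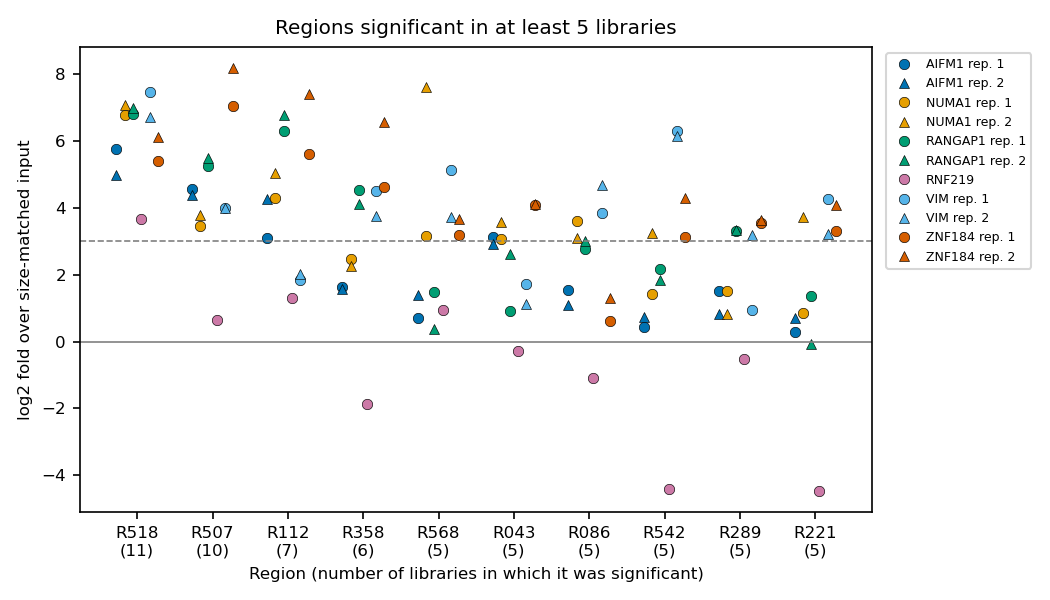
Authors' log2 fold over size-matched input (vertical axis) in the 10 regions that were significant in at least 5 libraries (horizontal axis, number of libraries in parentheses), with colour for the protein and circle or triangle for replicate 1 or 2. The dashed line marks the log2 fold of 3, and the RNF219 point is the lowest or, in R568, among the lower points of each region.

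At the other end, 5 regions were depleted against the input with nearly every antibody. R183 (chr14:50053527-50053594, plus strand) was at -2.40 and -3.17 in AIFM1, -4.74 and -4.61 in NUMA1, -4.54 and -5.15 in RANGAP1, -4.60 in RNF219, -2.73 and -1.44 in VIM and -5.42 and -3.84 in ZNF184. R060 (chr1:235291116-235291222, minus strand) was at -3.20 and -4.78 in AIFM1, -3.46 and -3.63 in NUMA1, -3.67 and -4.04 in RANGAP1, -2.79 in RNF219, -4.49 and -3.62 in VIM and -4.42 and -1.44 in ZNF184. Both were below input in all 11 libraries, yet each list held a peak there.

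R199 (chr15:65597069-65597130, plus strand) lay between -3.95 and -2.71 in the 9 libraries of the other proteins and at -0.76 and -0.14 in ZNF184. R174 (chr13:27829579-27829661, plus strand) lay between -3.99 and -1.54 in all 11 libraries. R271 (chr17:65736784-65736917, plus strand) lay between -3.62 and -1.43 in 10 libraries and at 0.03 in NUMA1 replicate 2.

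A few regions hardly varied between proteins. R500 (chr5:179046208-179046427, minus strand) had the narrowest range, 0.67: it was at 0.44 and 0.25 in AIFM1, 0.28 and 0.31 in NUMA1, 0.32 and 0.50 in RANGAP1, 0.30 in RNF219, 0.31 and 0.42 in VIM and 0.45 and 0.91 in ZNF184. R556 (chr7:26233193-26233315, minus strand) came next with a range of 1.12, from 0.38 in AIFM1 replicate 1 to 1.5 in NUMA1 replicate 1. All 11 libraries were slightly above input in both regions.

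Which protein stood highest or lowest was far from even. By the mean of its libraries, ZNF184 was the highest of the 6 proteins in 277 regions (42.4%), RANGAP1 in 115, AIFM1 in 95, VIM in 83, RNF219 in 49 and NUMA1 in 34. RNF219 was the lowest in 321 (49.2%), VIM in 142, NUMA1 in 63, RANGAP1 in 53, AIFM1 in 42 and ZNF184 in 32. Replicates of a protein differed by a median of 0.36 in RANGAP1, 0.48 in NUMA1, 0.53 in AIFM1, 0.62 in VIM and 0.68 in ZNF184. All libraries of a protein lay above every other library in 160 regions for ZNF184, 66 for RANGAP1, 51 for AIFM1, 31 for VIM, 30 for RNF219 and 6 for NUMA1. They lay below every other library in 265 for RNF219, 59 for VIM, 17 for ZNF184, 14 each for NUMA1 and RANGAP1 and 11 for AIFM1. RNF219, with 1 library, separates from the rest more easily than a protein with 2. These counts were made on the 653 regions alone, so they do not set the shared regions apart. In the wider set of regions tested below, the median difference from the other proteins was also highest in ZNF184 (0.83) and lowest in RNF219 (-1.07).

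Each protein was then compared with the mean of the other 5 in a limma fit over the 1779 nuclear regions that had a peak from each of the 6 proteins, with Benjamini-Hochberg adjustment over all of them and a threshold of 0.05. All 653 shared regions were tested. Libraries of 1 protein share an input, so the spread leaves out that of the input and the p-values are too small. The lone RNF219 library was assumed to vary like the others. A difference between the protein and a difference between its input and the other inputs cannot be told apart in these folds.

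Of the 653 regions, 592 (90.7%) differed for at least 1 protein, close to the 87.2% of all regions tested. ZNF184 was higher than the other proteins in 325 and lower in 39, while 42.2% of all regions tested were called higher and 5.96% lower. RNF219 was higher in 49 and lower in 280, against 8.54% and 40.8%. RANGAP1 was higher in 134 and lower in 83, against 18.8% and 12.0%. AIFM1 was higher in 128 and lower in 59, against 17.5% and 8.38%.

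VIM was higher in 128 regions and lower in 155, against 17.8% and 17.9%. NUMA1 was higher in 30 and lower in 79, against 3.15% and 14.1%. Apart from ZNF184 higher (49.8% of the shared regions) and VIM lower (23.7%), each share of the shared regions was within 3 percentage points of that over all regions tested. The regions tested include the shared regions. The rest of them lack a peak in at least 1 library, so the shares do not rest on equal numbers of values.

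Whole libraries were shifted too. Over all regions tested, the median difference from the other proteins was 0.83 in ZNF184, -1.07 in RNF219, -0.51 in NUMA1, 0.22 in AIFM1, 0.16 in RANGAP1 and 0.05 in VIM. In the shared regions it was 1.03, -1.11, -0.44, 0.14, 0.14 and -0.04 in the same order. With each library's median over the regions tested subtracted, ZNF184 was higher in 181 and lower in 120, RNF219 higher in 113 and lower in 136, and NUMA1 higher in 61 and lower in 11. AIFM1 was then higher in 84 and lower in 132, RANGAP1 higher in 113 and lower in 136, and VIM higher in 133 and lower in 169. For NUMA1, AIFM1 and RANGAP1 the majority thus changed sides with the scale. The share of all regions tested that was called on this scale alone is not given here. The change of sides is therefore not shown to be particular to the shared regions.

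Called in the same direction on both scales were 181 higher and 39 lower for ZNF184 (21.0% and 5.96% of all regions tested), and 49 and 136 for RNF219 (8.54% and 17.0%). VIM had 124 and 155 (17.3% and 17.9%) and RANGAP1 113 and 83 (15.2% and 12.0%). AIFM1 had 84 and 59 (10.8% and 8.38%) and NUMA1 30 and 11 (3.15% and 2.42%). None of the 653 was called in opposite directions. At least 1 protein was called on both scales in 521 regions (79.8%), and in 72.2% of all regions tested.

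Single libraries carried a large part of some counts on the deposited scale. AIFM1 went from 187 called regions to 35 without its replicate 2, RANGAP1 from 217 to 94 without its replicate 1 and 53 without its replicate 2, and VIM from 283 to 186 without its replicate 1 and 146 without its replicate 2. ZNF184 went from 364 to 231 without its replicate 2. NUMA1, with 109, went to 21 without its replicate 1, 52 without its replicate 2, 42 without AIFM1 replicate 2, 58 and 67 without RANGAP1 replicates 1 and 2, 68 without VIM replicate 1, and 199 without RNF219.

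**Figure D4:**
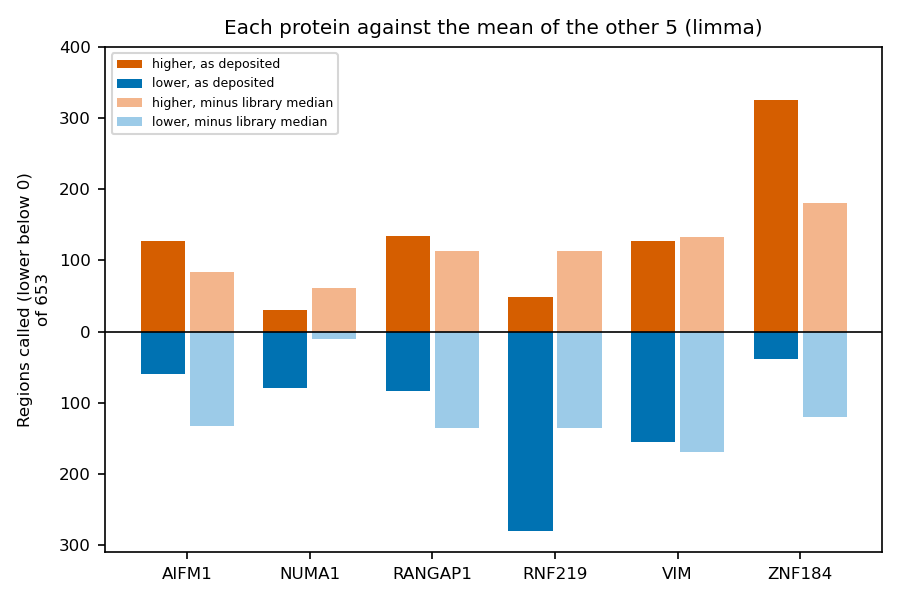
Number of the 653 shared regions called higher (above 0) or lower (below 0) for each protein against the mean of the other 5, by limma at an adjusted p under 0.05. Dark bars use the folds as deposited and pale bars the folds minus each library's median. The dark bars are longest for ZNF184 higher (325) and RNF219 lower (280). The pale ones are more even for these proteins but not for NUMA1 (61 higher and 11 lower).

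The regions named per protein are those with the largest called differences in which all its libraries lay on 1 side of all others. In many of them the highest peaks of the 11 libraries had no base in common. The folds compared there need not come from 1 site. These were R300 and R242 for AIFM1, R353 for NUMA1, and R345, R049, R409 and R379 for RANGAP1. Also without a common base were R140, R542, R221 and R468 for RNF219, all regions named for VIM, and R481 and R614 for ZNF184. All differences are log2 folds on the deposited scale with their standard error, and the adjusted p is that of the limma fit.

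For ZNF184 the 5 largest were all higher, and R277 and R481 had 2 input reads and 1 input read in replicate 1. R277 (chr17:74557718-74557786, plus strand) was at 4.84 and 6.07 in ZNF184 and between -1.33 and 1.30 in the other 9 libraries, a difference of 5.39 ± 0.47 (adjusted p = 1.33e-06). In ZNF184 replicate 1 that fold came from 42 eCLIP reads and 2 input reads. R481 (chr5:140090897-140090958, plus strand) was at 4.15 and 6.52 against -1.34 to 1.48, a difference of 5.35 ± 0.51 (adjusted p = 2.74e-06). R365 (chr2:27273676-27273756, plus strand) was at 4.99 and 5.41 against -1.69 to 1.02, a difference of 5.31 ± 0.36 (adjusted p = 3.27e-07). In these 3 regions no other protein passed a log2 fold of 1.5.

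In the other 2 ZNF184 regions another protein was also enriched. R651 (chrX:123826655-123826699, minus strand) was at 5.42 and 7.53 in ZNF184 against -0.70 to 2.83, a difference of 5.31 ± 0.54 (adjusted p = 3.64e-06). R614 (chrX:70766886-70767004, plus strand) was at 4.69 and 5.77 against -2.28 to 3.36, a difference of 5.24 ± 0.54 (adjusted p = 3.83e-06), with 190 eCLIP and 10 input reads in replicate 1.

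For RNF219 the 5 largest differences were all lower. R140 (chr12:13199072-13199161, plus strand) was at -4.63 in RNF219, while AIFM1 was at 2.83 and 2.39, NUMA1 at 1.19 and 2.93, RANGAP1 at 2.44 and 2.83, VIM at 5.27 and 3.92 and ZNF184 at 2.25 and 4.20. The difference was -7.65 ± 0.72 (adjusted p = 9.98e-06). R542 (chr6:126301030-126301082, minus strand), which had the widest range of all at 10.7, was at -4.42 in RNF219, with AIFM1 at 0.42 and 0.74, NUMA1 at 1.43 and 3.25, RANGAP1 at 2.18 and 1.83, VIM at 6.30 and 6.15 and ZNF184 at 3.15 and 4.31. The difference was -7.40 ± 0.61 (adjusted p = 4.47e-06). In both, RNF219 alone was below its input.

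R221 (chr16:68776373-68776459, plus strand) was at -4.46 in RNF219 and at -0.06 to 4.28 in the other 10 libraries, a difference of -6.64 ± 0.79 (adjusted p = 6.76e-05). NUMA1 replicate 2, both VIM replicates and both ZNF184 replicates were significant there, at 3.74, 4.28, 3.22, 3.32 and 4.09. R186 (chr14:90178922-90179011, plus strand) was at -4.21 against 0.30 to 4.50, a difference of -5.95 ± 0.78 (adjusted p = 0.000103). R468 (chr3:179879689-179879756, minus strand) was at -4.22 against -0.16 to 3.91, a difference of -5.80 ± 0.76 (adjusted p = 0.000103).

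Such a gap was not the rule where RNF219 was low. RNF219 was at or below -3 in 36 of the 653 regions. In 3 of these the other 10 libraries were all above input, and over the 36 the median of the other libraries was -0.81.

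For VIM, 4 of the 5 largest differences were higher and 1 was lower. R542, already given, had the largest, at 5.38 ± 0.45 (adjusted p = 6.62e-06). R605 (chr9:136223120-136223235, minus strand) was at 4.60 and 4.52 in VIM against -1.41 to 2.44, a difference of 4.06 ± 0.44 (adjusted p = 4.72e-05), on 5 and 7 eCLIP reads beside 1 input read each. The interval for replicate 1 was 1.44 to 10.2, so the fold itself is loosely known. R471 (chr4:53578787-53578914, plus strand) was at 4.10 and 4.61 against -2.50 to 3.58, a difference of 3.73 ± 0.47 (adjusted p = 0.000109), on 85 and 134 eCLIP reads beside 24 and 18 input reads.

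R548 (chr7:55955544-55955595, plus strand) was at 3.23 and 3.15 in VIM against -3.01 to 2.36, a difference of 3.68 ± 0.56 (adjusted p = 0.000294), on 93 and 130 eCLIP reads beside 48 input reads in each replicate. R538 (chr6:74230713-74230752, minus strand) went the other way, at -2.33 and -3.30 in VIM against -0.66 to 3.28, a difference of -4.03 ± 0.40 (adjusted p = 2.51e-05).

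For RANGAP1 the 5 largest differences were all higher. R345 (chr19:56181802-56181916, plus strand) was at 4.23 and 5.22 in RANGAP1 against -1.20 to 1.85, a difference of 4.57 ± 0.39 (adjusted p = 8.54e-06), with 153 eCLIP and 12 input reads in replicate 1. R049 (chr1:155242992-155243257, minus strand) was at 4.95 and 4.22 against -1.03 to 2.62, a difference of 3.40 ± 0.37 (adjusted p = 5.22e-05). The RANGAP1 folds there came from 21 eCLIP reads in each replicate, beside 1 and 2 input reads. R409 (chr20:34638394-34638879, minus strand) was at 4.36 and 4.51 against -0.12 to 3.66, a difference of 3.20 ± 0.43 (adjusted p = 0.000326), on 195 and 180 eCLIP reads beside 14 input reads each. Both replicates were significant in all 3.

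R379 (chr2:10588247-10588450, minus strand) was at 4.06 and 4.61 in RANGAP1 against -0.08 to 2.45, a difference of 3.13 ± 0.53 (adjusted p = 0.00087). Its RANGAP1 replicate 1 fold came from 34 eCLIP reads and 3 input reads. R074 (chr11:2398540-2398620, plus strand) was at 3.33 and 3.77 against -1.83 to 2.28, a difference of 3.10 ± 0.35 (adjusted p = 7.07e-05), on 41 and 46 eCLIP reads beside 6 input reads each.

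For NUMA1, which had the fewest called regions, 3 of the 5 largest differences were higher and 2 lower. R108 (chr11:10530445-10530544, minus strand) was at 4.37 and 3.99 in NUMA1 against -3.43 to 2.42, a difference of 4.34 ± 0.44 (adjusted p = 5.2e-05). The lowest of the others were ZNF184, at -3.43 and -1.82. The NUMA1 folds there came from 23 and 15 eCLIP reads beside 2 and 3 input reads. R618 (chrX:102841782-102841987, plus strand) was at 3.83 and 3.11 against -2.37 to 2.03, a difference of 3.44 ± 0.35 (adjusted p = 5.2e-05), on 189 and 60 eCLIP reads beside 24 and 22 input reads.

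R569 (chr8:37556794-37556845, plus strand) was lower, at -0.73 and -0.67 in NUMA1 against 0.60 to 3.18, a difference of -2.61 ± 0.38 (adjusted p = 0.00188). R565 (chr7:100277702-100277786, minus strand) was also lower, at -1.62 and -1.14 against -0.21 to 3.17, a difference of -2.42 ± 0.36 (adjusted p = 0.00204). In R353 (chr19:22877617-22877710, minus strand) all 11 libraries were above input, with NUMA1 at 3.96 and 5.17 and the others between 1.28 and 2.96, a difference of 2.23 ± 0.42 (adjusted p = 0.00716). Its NUMA1 replicate 1 fold came from 26 eCLIP reads and 3 input reads. Without NUMA1 replicate 2 its adjusted p was 0.0597, the highest among its alternatives, which began at 0.00124. It was the 1 loss among the 30 named differences.

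For AIFM1 the 5 largest differences were all higher, and they rested on 1 to 3 input reads. R300 (chr17:79801898-79801970, minus strand) was at 3.60 and 3.56 in AIFM1 against -0.36 to 0.55, a difference of 3.51 ± 0.35 (adjusted p = 7.05e-05), on 10 and 22 eCLIP reads beside 1 input read each. The interval was 0.79 to 9.04 for replicate 1 and 0.93 to 8.92 for replicate 2. R123 (chr11:65622423-65622522, minus strand) was at 2.87 and 2.68 against -1.52 to 0.87, a difference of 3.29 ± 0.35 (adjusted p = 9.03e-05), on 6 and 12 eCLIP reads beside 1 input read each. Here the interval of each replicate reached below 0, from -0.18 and -0.08, so that neither replicate alone stood above its input beyond counting error.

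R242 (chr17:7215453-7215594, plus strand) was at 2.78 and 2.18 in AIFM1 against -2.28 to 1.66, a difference of 3.19 ± 0.37 (adjusted p = 0.000196). R515 (chr6:30690314-30690410, plus strand) was at 2.28 and 3.56 against -1.70 to 0.97, a difference of 2.93 ± 0.42 (adjusted p = 0.00051). R212 (chr16:2808985-2809048, plus strand) was at 2.60 and 3.18 against -1.0 to 0.65, a difference of 2.85 ± 0.40 (adjusted p = 0.000503). The interval of AIFM1 replicate 1 also reached below 0 in R515 and R212. R515 had 8 eCLIP reads beside 2 input reads there, with an interval of -0.04 to 5.55. R212 had 5 beside 1, with an interval of -0.56 to 8.17. Neither AIFM1 replicate was significant in any of the regions named for AIFM1. The AIFM1 replicates share 1 input, so its low read count enters both folds.

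The pattern over the 653 regions was more alike between some proteins than others. Spearman's rho between the protein means was 0.64 for RANGAP1 and VIM, 0.63 for NUMA1 and VIM and 0.54 for NUMA1 and RANGAP1. RNF219 followed AIFM1 most closely, at 0.44, and was at -0.15 with VIM and -0.03 with RANGAP1. ZNF184 had values between 0.12 and 0.28 with the other 5. These are descriptions over regions, which are not independent: regions of 1 locus can lie on the same RNA, and all values of a protein share its input and its depth.

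Regions of 1 locus resembled each other. Over 218 pairs of neighbours in a locus, the median difference in log2 fold was between 0.46 in NUMA1 replicate 1 and 0.95 in RNF219. Between regions of different loci it was between 0.91 in NUMA1 replicate 2 and 1.54 in ZNF184 replicate 2, and in each library it was above that of the neighbours.

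The 9 loci with at least 5 regions held 51 of them. The largest was L430 (chrX:73061693-73071613, minus strand) with 8 regions, which were 8.16% of the 98 nuclear regions in its span. Its median log2 folds were 0.82 and 0.92 in AIFM1, 0.22 and -0.11 in NUMA1, 0.37 and 0.17 in RANGAP1, 1.07 in RNF219, -0.91 and 0.12 in VIM and -0.47 and 0.94 in ZNF184. RNF219, low in most shared regions, was the highest library here.

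L69 (chr11:65190271-65197546, plus strand) with 7 regions, R086 among them, was the most enriched of the 9, with a median of 1.85. Its medians were 1.05 and 0.97 in AIFM1, 2.07 and 1.57 in NUMA1, 2.33 and 2.58 in RANGAP1, -0.07 in RNF219, 1.20 and 1.85 in VIM and 1.94 and 2.90 in ZNF184. On the same chromosome and strand, L71 (chr11:65266517-65272748) with 5 regions had its highest medians in ZNF184, at 1.5 and 2.65, and VIM, at 1.29 and 2.64, with RNF219 at 0.04. In both of these loci RNF219 was the lowest library, at the level of its input.

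In 4 of the loci both ZNF184 medians were above 1 while both VIM medians were below input. L7 (chr1:45241247-45243682, plus strand), where 6 of 12 nuclear regions were shared by all libraries (50%), had 1.13 and 1.46 in ZNF184, 0.97 and 0.97 in AIFM1 and -0.69 and -0.80 in VIM. L398 (chr8:146015176-146017774, minus strand), with 5 of 11 (45.5%), had 2.52 and 2.74 in ZNF184 and -0.65 and -0.61 in VIM. L422 (chrX:153626719-153628704, plus strand), with 5 of 12 (41.7%), had 1.29 and 2.44 in ZNF184 and -0.80 and -0.48 in VIM.

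The fourth was L336 (chr5:149823841-149829300, minus strand), with 5 regions, at 1.41 and 1.54 in ZNF184, 0.70 and 1.97 in AIFM1, 1.32 in RNF219 and -1.03 and -1.78 in VIM. The remaining 2 loci had 5 regions each. L291 (chr22:38880340-38885812, minus strand) was highest in AIFM1, at 1.39 and 1.20, and at -0.65 and -0.29 in VIM. L337 (chr5:179043124-179050165, minus strand), which contains R500, varied least, with medians between -0.15 in NUMA1 replicate 1 and 0.91 in ZNF184 replicate 2.

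**Figure D5:**
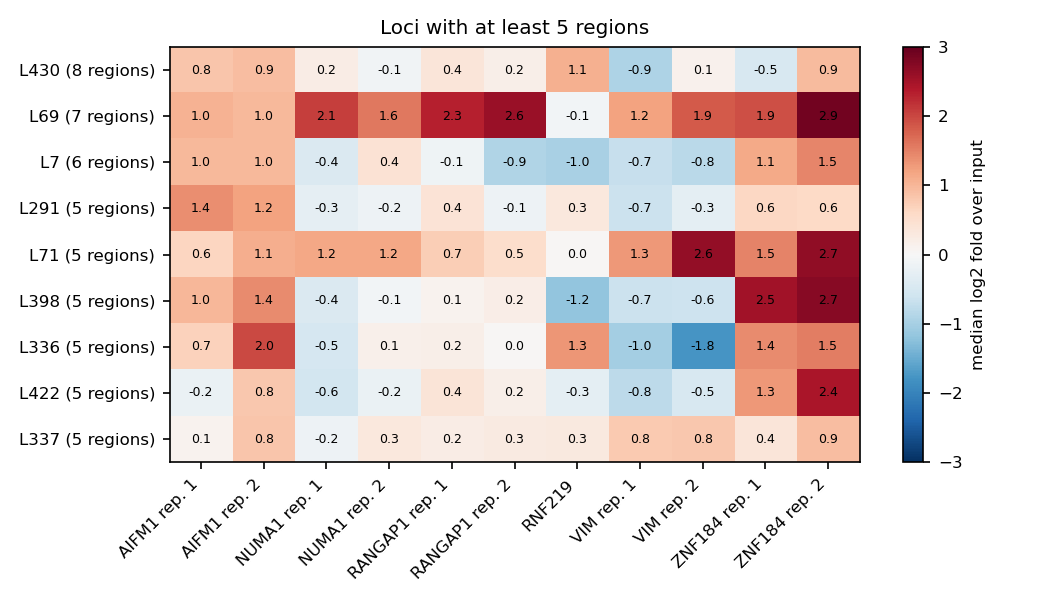
Median log2 fold over size-matched input (colour and printed value, blue below 0 and red above) over the regions of each of the 9 loci with at least 5 regions (vertical axis) in each library (horizontal axis). L69 is red in all libraries but RNF219, and L7, L398, L336 and L422 are red in ZNF184 and blue in VIM.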

How the data were processed

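The 11 deposited peak lists, 1 per eCLIP library and none for pooled replicates, gave position, strand, the authors' -log10 p of each peak against the size-matched input (0 below input, at most 400) and the authors' log2 fold over that input. Per the submitters' processing notes, cutadapt, STAR, GATK, Picard, SAMtools and the build hg19 were used. Their versions, the peak caller and any duplicate removal: not given in the sources used here. Per the labels' protocols, lysates were digested with RNase I and RNA came from a window 75 kDa above the protein. Sample titles gave groups and replicate numbers.

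Peaks were merged and matched in Python 3.11.15 (numpy 2.4.6, pandas 2.3.3, scipy 1.17.1). With the depth ratio found per library, 95.6% to 99.1% of its folds were ratios of at most 200 eCLIP to 50 input reads (tolerance 1e-07 in log2), against 0% with a wrong constant. Of 2000 p-values tried per library, 98.65% to 99.95% matched an exact or chi-square p within 0.005. Reads are given only for values where fold and p together fixed them, and an input of 1 read may stand for none. Proteins were compared in limma 3.58.1 (R 4.3.3), with no replicate block; the fit was tested on simulated data.

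Named were the 5 regions with the highest and the 5 with the lowest median, those significant in at least 5 libraries, the 2 with the widest and the 2 with the narrowest range, at most 5 per protein by difference, and the largest loci; 6 loci were to be named, and since 6 tied at 5 regions, 9 are. The members and lists were chosen with earlier results of these data known. The alternatives tried were other ways to merge, threshold and summarise peaks, subtraction of library medians, testing only the shared regions, a replicate block and leaving out each library.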

Additional observations from a re-analysis of the deposited data

How the results depend on the processing

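The count of 653 shared regions fell to 41 with peaks above input alone and to 1 with significant peaks alone; without 1 library it ran from 650 to 788. Without 1 library, called regions ran from 35 to 261 for AIFM1, 21 to 199 for NUMA1, 53 to 252 for RANGAP1, 301 to 357 for RNF219, 146 to 303 for VIM and 231 to 376 for ZNF184. NUMA1 had 72 with library medians subtracted and 35 with the shared regions tested alone. Over 10 pairs of same-numbered libraries, deviations correlated at -0.25 to 0.38, 3 of them above 0.1. The highest was that of VIM and ZNF184. These correlations do not settle whether some libraries with the same replicate number belong together. With a replicate block, fitted on the shared regions alone, calls were 152 for AIFM1, 26 for NUMA1, 186 for RANGAP1, 272 for RNF219, 255 for VIM and 341 for ZNF184, against 157, 35, 182, 301, 267 and 349 on the same regions without the block. The mean of the library medians, 0.76 in AIFM1 and 0.62 in RANGAP1, was 0.64 and 0.49 with the longest peak and 0.65 and 0.45 with a length-weighted mean. Minus the median of other nuclear regions, it was -0.22 in AIFM1, -1.40 in NUMA1, -0.77 in RANGAP1, -1.58 in RNF219, -1.97 in VIM and 0.011 in ZNF184. Of the alternatives for named differences, 324 of 325 that left out a library and all 150 others kept the call. The named differences were picked for size and separation in these same data, so this says nothing of the other calls. Folds on 1 to 3 input reads are limited by depth.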
